A study of Mus musculus with 36 samples.

Results

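The comparison described here is that of 5-month skeletal muscle between male C57Bl/6 mice with 1 inactivated copy of Myc (Myc heterozygous) and wild type males of the same strain and age. It rests on 6 of the 36 arrays of the series, taken by their titles. The wild type group was 1 RNA pool of 6 mice and the Myc heterozygous group 1 RNA pool of 5 mice, each mixed in equal amounts of RNA and hybridized to 3 technical arrays of the Mouse Gene 1.0 ST type. The series also covered liver and adipose tissue of the same mice, and all 3 tissues of other mice at 24 months. The part of Myc that was inactivated, the muscle that was dissected and the hour of death were not given in the sources used here. The sources name 2 ways of homogenizing tissue without assigning them to samples, and name both a 3' IVT and a whole-transcript labelling kit.

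Myc is a transcription factor that pairs with Max and binds the E-box sequence, and it is known as a driver of ribosome production, protein synthesis and growth. Its level is low in resting adult muscle fibres and rises in regenerating or loaded muscle. Muscle fibres are classed as slow or fast by the myosin, troponin and calcium-handling proteins they make. A piece of whole muscle also holds vessels, nerve, tendon, fat and blood cells, and a probe set reads the mixture. In such RNA, fewer cells of a type and less RNA per cell cannot be told apart.

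The deposited values were log2 expression per probe set. The 35556 probe sets included 21789 with 1 gene symbol, of which 13073 had a mean above 6.90 over the 6 arrays (the 40th percentile) and were tested. Muscle genes were the brightest, with the skeletal actin Acta1 at 14.63 in wild type and 14.65 in Myc heterozygous, and the creatine kinase Ckm at 14.58 and 14.53. Arrays of 1 pool correlated at 0.996 to 0.997 and arrays of the 2 pools at 0.993 to 0.994. The median SD between arrays of a pool was 0.06 (log2) in both pools. Since each genotype was 1 pool, the test (limma) sets the difference between 2 RNA mixtures against array-to-array error. It does not measure the spread between mice, and n = 1 pool per genotype. A probe set is called here when the limma adjusted p was under 0.05 and the difference at least 1.5-fold, and passed when only the first held.

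Few probe sets differed. Of the 13073 tested, 47 were called lower in the Myc heterozygous pool (0.360%) and 3 higher (0.0229%). With no minimum fold, 124 passed as lower (0.949%) and 27 as higher (0.207%). All 50 tested probe sets that differed by at least 1.5-fold passed the adjusted p, so the fold minimum set the number called. For 25 of the 47 lower calls the mean of the Myc heterozygous pool was under the filter value of 6.90, and no detection calls were used here, so the sizes of those differences depend on the background signal and give no exact fold or rank. The median difference over all tested probe sets was -0.01 (log2), with a median absolute deviation of 0.09. The 3 arrays of the Myc heterozygous pool lay wholly below those of wild type for 13.2% of probe sets and wholly above for 7.35%.

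**Figure D1:**
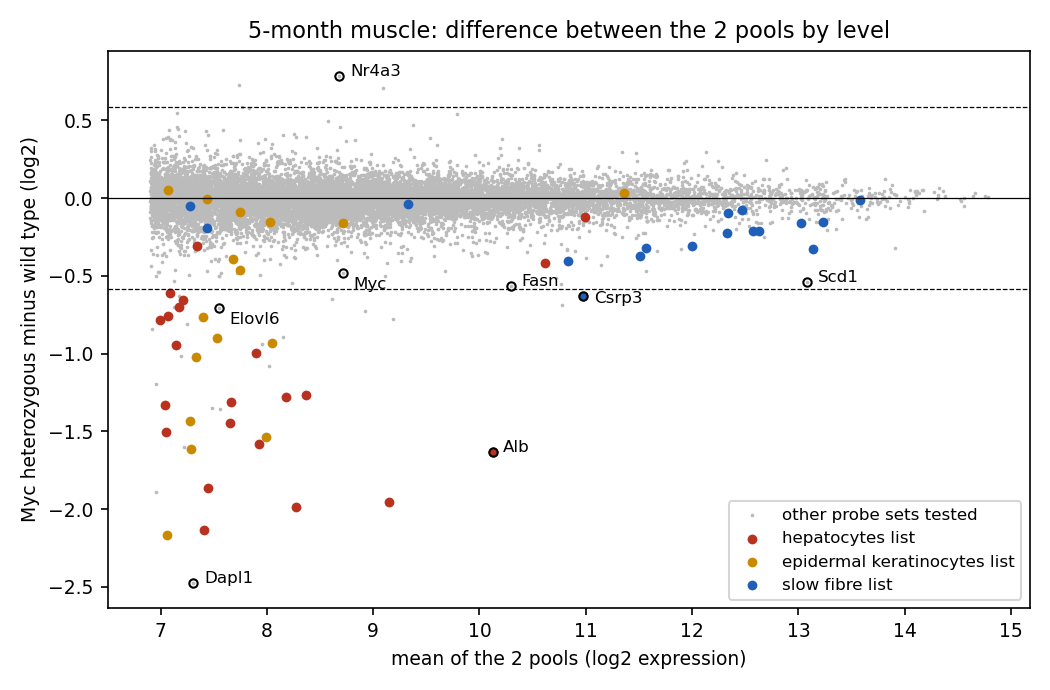
Difference between the Myc heterozygous and wild type pools (log2, y axis) against the mean of the pools (log2 expression, x axis), with 1 point per probe set tested in 5-month muscle. Dashed lines mark 1.5-fold. The hepatocyte list (22 genes) and part of the epidermal list (16 genes) lie far below the other probe sets, mostly at low levels, and the 17 slow fibre genes lie slightly below 0 at high levels.

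Myc itself read 9.00, 8.97 and 8.91 (log2) on the wild type arrays and 8.51, 8.35 and 8.57 on the Myc heterozygous arrays. The groups did not overlap. The difference of -0.48 ± 0.09 (SE, 3 arrays per pool) left 71.5% of the wild type level and passed (limma, adjusted p = 0.0015), under 1.5-fold. Pvt1, the noncoding gene beside Myc, read 7.31, 7.25 and 7.56 in wild type and 7.62, 7.72 and 7.69 in Myc heterozygous, and did not pass (limma, adjusted p = 0.374).

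No other tested gene of the Myc network passed. Of 23 genes of Myc, its partners and antagonists, 17 were lower and 6 higher, with a median of -0.04. The lowest differences among the rest were those of Usp28, a deubiquitinase that stabilises Myc (-0.15 ± 0.07), Mycl, a Myc paralog (-0.14 ± 0.10), and Mxd3, an antagonist (-0.12 ± 0.11). The arrays of the 2 pools overlapped for Mycl and Mxd3 and lay apart for Usp28.

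The gene groups best known as Myc targets lay near 0. Of 43 ribosome biogenesis genes 24 were lower and 19 higher, 0 passed, and the median was -0.01, against -0.01 over all 11893 genes tested. Their differences ran from -0.15 for Utp20, a component of the small subunit processome, to 0.10 for the helicase gene Ddx18. Of 38 cytosolic ribosomal protein genes 0 passed (median -0.02), as did 0 of 30 translation factor genes (median -0.01). Rplp1 of the ribosomal stalk differed by -0.13 ± 0.07, and the highest of the list was Rps3a1 (0.21 ± 0.14). Members of the ribosomal protein family have many processed copies, so a probe set may read more than 1 of them. Among 33 other Myc target genes 0 passed (median -0.01). The transferrin receptor gene Tfrc differed by -0.29 ± 0.09 and the ornithine decarboxylase gene Odc1 by 0.26 ± 0.09, and for each the arrays of the pools did not overlap (limma, adjusted p = 0.180 and 0.197).

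Windows of 250 bases before the start of Cdk4 (chr10:127063285-127063534 (plus strand)) and Ldha (chr7:46845554-46845803 (plus strand)), a cell cycle kinase and a lactate dehydrogenase long studied as Myc targets, are shown because each holds several copies of the E-box letters. RefSeq gives Ldha a second start, whose window holds 0 copies and is not shown. They come from RefSeq (GRCm38.p6), 5′ to 3′ on the gene's strand, with CACGTG in capitals.
Cdk4: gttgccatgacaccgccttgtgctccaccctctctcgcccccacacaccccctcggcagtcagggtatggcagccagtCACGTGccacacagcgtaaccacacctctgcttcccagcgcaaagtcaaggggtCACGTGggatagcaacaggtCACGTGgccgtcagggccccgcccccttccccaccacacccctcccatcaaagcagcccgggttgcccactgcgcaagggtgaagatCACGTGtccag
Ldha: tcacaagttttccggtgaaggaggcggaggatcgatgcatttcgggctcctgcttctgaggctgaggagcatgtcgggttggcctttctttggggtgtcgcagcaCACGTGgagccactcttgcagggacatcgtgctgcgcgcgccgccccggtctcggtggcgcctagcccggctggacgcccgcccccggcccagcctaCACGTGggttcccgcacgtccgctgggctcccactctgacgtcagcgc
The letters CACGTG, which read the same on both strands, occurred in 6.02% of all 32851 such windows. They occurred in 12 of 37 matched genes of the other Myc targets (32.4%) and in 2 of 38 ribosome biogenesis genes (5.26%). These list shares count genes, each counted if any of its windows held the letters. They cannot be set directly beside the share of windows. The 944 tested genes with the letters had a median difference of -0.02 and 0 calls, and the 8539 tested genes without them had a median of -0.01, 37 lower calls and 3 higher calls. A match is a description of the letters and not a binding site.

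Genes that liver cells express formed the largest set among the lower calls. Of the 47 called lower, 19 belonged to the hepatocyte list, 8 to the epidermal list and 20 to neither. Albumin (Alb), the main plasma protein, read 10.97, 10.91 and 10.94 on the wild type arrays and 9.50, 9.28 and 9.14 on the Myc heterozygous arrays. The pools lay far apart, by -1.63 ± 0.13, or 3.10-fold lower (limma, adjusted p = 1.3e-11). Fabp1, the liver fatty acid binding protein, read 8.67, 8.44 and 8.32 against 6.57, 6.23 and 6.24, the latter under the filter value. Apoa2, a protein of high density lipoprotein, read 10.22, 10.07 and 10.08 against 8.23, 8.14 and 8.14, which was 3.88-fold lower. Each of these genes had every Myc heterozygous array below every wild type array.

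**Figure D2:**
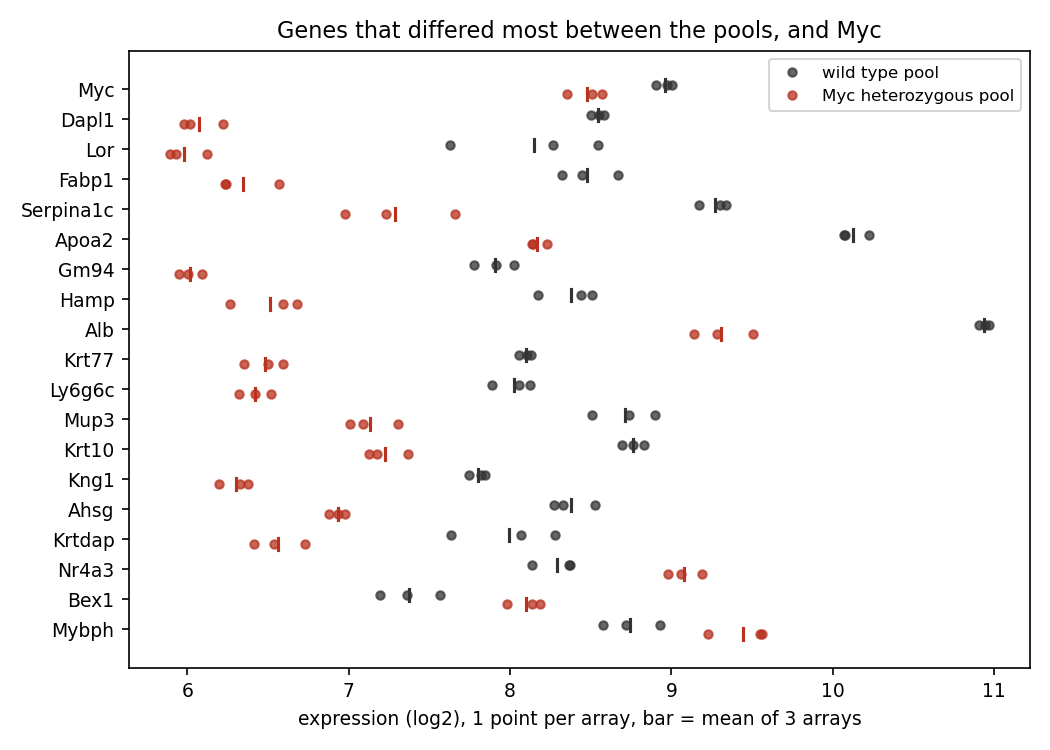
Expression (log2, x axis) on each of the 3 wild type and 3 Myc heterozygous arrays for Myc, the 15 genes with the largest lower calls and the 3 genes called higher. Points are arrays and bars the mean of 3 arrays. The pools do not overlap for any gene drawn, and the difference runs from -2.47 for Dapl1 to 0.78 for Nr4a3.

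Of the 46 genes of the hepatocyte list 35 were on the array, and all 35 were lower with a median of -0.94, against 10032 of all 19938 genes and a median of -0.0007 with no filter. A mean above the filter value was reached by 22, of which 20 passed and 19 were called (median -1.27), and the other 13 were too dim to be tested (median -0.59). For 10 of the 19 called genes the Myc heterozygous mean was under the filter value, so they were tested because wild type was high, and the median of those tested is larger for that reason. Secreted carriers and inhibitors were among the lowest: Serpina1c, an alpha-1 antitrypsin gene, differed by -1.98 ± 0.17, the kininogen gene Kng1 by -1.50 ± 0.10 and the fetuin gene Ahsg by -1.45 ± 0.10. Hamp, the iron hormone hepcidin, differed by -1.86 ± 0.24 and Mup3, a major urinary protein gene, by -1.58 ± 0.12. The Serpina1 and Mup genes have near-identical copies, so their probe sets may not tell the copies apart. The fibrinogen chains Fgg (-1.33 ± 0.14) and Fgb (-1.31 ± 0.09) and the haem carrier hemopexin (Hpx, -1.35 ± 0.13) were also called. Of the acute phase list 4 of 9 tested genes were called lower, against 0.360% of all tested probe sets, and it shares members with this group. Of the called genes Hpx, Fgg and Itih4 had Myc heterozygous means under the filter value (6.80, 6.38 and 6.86). They were tested because wild type was high. Of the 10 acute phase genes on the array that were not tested 7 were lower (median -0.13). Trf, the transferrin gene, passed below 1.5-fold (-0.42 ± 0.09), and Apoa5 and Cyp2e1 did not pass.

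The same genes were very bright in liver. Of the 47 lower calls, 28 (59.6%) read at least 16-fold higher in 5-month wild type liver than in 5-month wild type muscle, against 91 of all 13073 tested (0.696%). For 18 of these 28 the Myc heterozygous mean was under the filter value, so they were tested because wild type was high. The 59.6% rests partly on that. With no filter, 372 genes were at least 16-fold higher in liver, and 297 of them were lower in Myc heterozygous muscle (median -0.18). For the 19 called hepatocyte genes the signal in wild type muscle was 1.03% to 7.09% of that in wild type liver (median 1.88%), and the signal in Myc heterozygous muscle 0.505% to 2.87% of that in Myc heterozygous liver (median 0.900%). These percentages compare linear signals, background included. What part RNA from liver had in this result was not tested.

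Windows of 250 bases before the start are shown for 4 of the called genes that share a short motif, Alb at chr5:90460620-90460869 (plus strand), Fgb at chr3:83049864-83050113 (minus strand), Fabp1 at chr6:71199629-71199878 (plus strand) and Serpina1c at chr12:103904951-103905200 (minus strand). They are from RefSeq (GRCm38.p6), 5′ to 3′ on the gene's strand. Capitals mark GTTAAT or, from the other strand, ATTAAC, the half-site known for the liver factor HNF1.
Alb: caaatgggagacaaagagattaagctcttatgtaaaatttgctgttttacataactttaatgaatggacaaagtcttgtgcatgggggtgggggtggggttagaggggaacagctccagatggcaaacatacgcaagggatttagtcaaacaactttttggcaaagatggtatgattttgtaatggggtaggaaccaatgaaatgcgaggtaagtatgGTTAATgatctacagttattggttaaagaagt
Fgb: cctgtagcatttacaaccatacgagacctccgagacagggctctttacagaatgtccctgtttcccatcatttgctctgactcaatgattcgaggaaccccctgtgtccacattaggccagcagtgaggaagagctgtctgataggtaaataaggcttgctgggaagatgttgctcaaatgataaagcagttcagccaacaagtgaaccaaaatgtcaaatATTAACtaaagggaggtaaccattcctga
Fabp1: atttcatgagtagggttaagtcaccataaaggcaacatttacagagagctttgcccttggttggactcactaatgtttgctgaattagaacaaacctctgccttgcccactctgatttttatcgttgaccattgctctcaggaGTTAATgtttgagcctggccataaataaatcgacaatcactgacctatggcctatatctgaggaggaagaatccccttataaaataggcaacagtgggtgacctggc
Serpina1c: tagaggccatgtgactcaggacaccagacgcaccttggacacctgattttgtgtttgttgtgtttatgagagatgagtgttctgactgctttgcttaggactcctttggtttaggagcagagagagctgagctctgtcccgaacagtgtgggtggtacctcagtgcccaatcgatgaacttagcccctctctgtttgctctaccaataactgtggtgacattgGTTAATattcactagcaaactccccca
The capitals begin 32 bases before the start in Alb, 29 in Fgb, 107 in Fabp1 and 27 in Serpina1c. On either strand these letters occurred in 6.43% of all 32851 windows. Counted by gene, with any window of a gene enough, 431 tested genes had the letters and 9052 did not. By the same count 10 of 33 matched genes of the hepatocyte list (30.3%) and 11 of 37 matched genes called lower (29.7%) had them. Among the 431 tested genes with the letters 11 were called lower and 0 higher (median difference -0.02). Among the 9052 without them 26 were called lower and 3 higher (median -0.01). For tested hepatocyte genes the median was -1.63 for the 5 with the letters and -0.79 for the 13 without. Among called lower genes it was -1.19 for the 11 with the letters and -1.18 for the 26 without. Called genes were selected by their difference, so their medians cannot show whether the letters mattered. What part the letters had was not tested.

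The hepatocyte list had the opposite sign in 2 of the 3 other pairs of pools compared. At 24 months, in other mice, the hepatocyte list was higher in Myc heterozygous muscle for 20 of the same 22 genes, with a median of 1.15, and in 5-month adipose tissue, from the same mice, for 20 of 22, with a median of 1.23. In 5-month liver 21 of the 22 were lower, with a smaller median of -0.17. The difference between ages was tested in the fit itself. It was called for 20 of these 22 genes against 24-month muscle, where 1.85% of all tested probe sets were called (242), and for 20 of 22 against 5-month adipose, where 1.25% were called (163). Against 5-month liver it was called for 17 of 22, where 0.688% were called (90). The 22 genes were chosen by their level in 5-month muscle, and the 5-month difference enters each of these contrasts. For 10 of the 19 genes called lower the Myc heterozygous mean was under the filter value. The counts out of 22 therefore rest partly on the filter. For Alb the genotype difference was -1.63 at 5 months and 2.35 at 24 months. For Serpina1c it was -1.98 and 2.36.

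**Figure D3:**
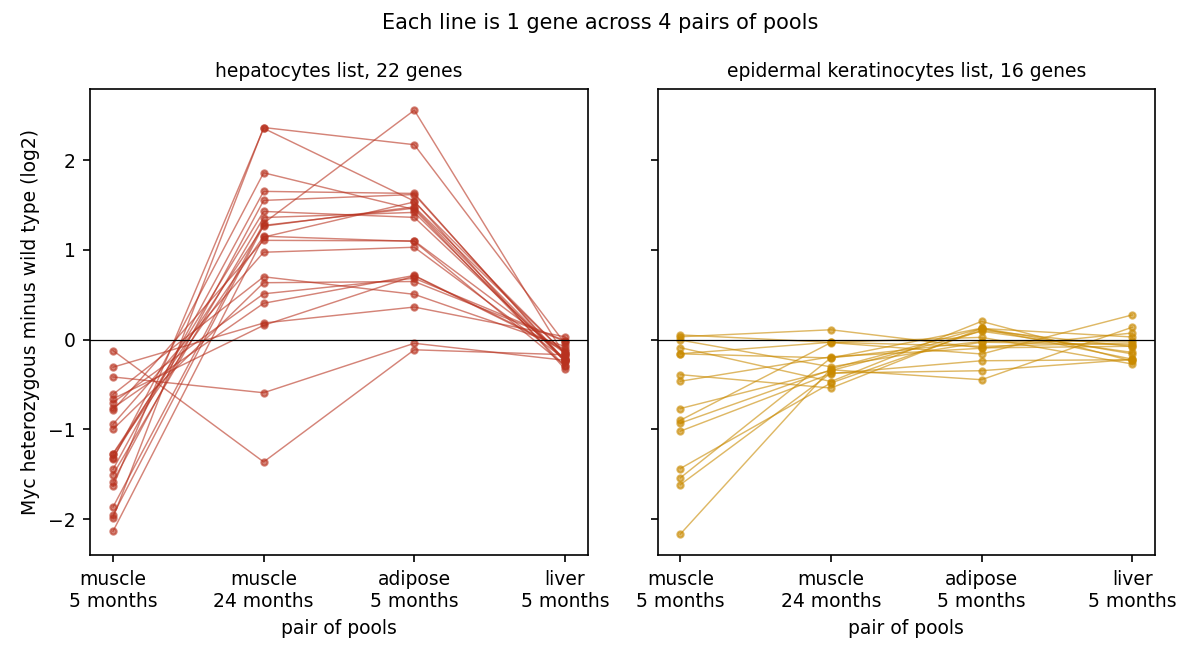
Difference between the Myc heterozygous and wild type pools (log2, y axis) in 4 pairs of pools (x axis), with 1 line per tested gene of the hepatocyte list (22 genes) and of the epidermal keratinocyte list (16 genes). Hepatocyte genes lie below 0 in 5-month muscle, mostly above 0 in 24-month muscle and 5-month adipose, and slightly below 0 in liver. Epidermal genes lie lowest in 5-month muscle.

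Epidermal genes were the second set of lower calls. Lor, which encodes the cornified envelope protein loricrin, read 8.54, 7.63 and 8.27 in wild type and 6.12, 5.93 and 5.89 in Myc heterozygous muscle. The 2 pools did not overlap although the wild type arrays spread widely, and the Myc heterozygous arrays were under the filter value. The suprabasal keratins Krt77 (-1.62 ± 0.11) and Krt10 (-1.54 ± 0.10) and the keratinocyte differentiation gene Krtdap (-1.44 ± 0.16) were called, as were the desmosomal gene Perp (-0.93 ± 0.09) and Dmkn, dermokine (-1.02 ± 0.11). Of the 35 epidermal genes on the array 30 were lower (median -0.44), against 10032 of all 19938 genes with no filter. Of these 35, 16 were tested, 9 passed as lower and 8 were called (median -0.62), 4 of the 8 with a Myc heterozygous mean under the filter value. Over all tested probe sets 0.949% passed as lower and 0.360% were called lower. Trp63, the transcription factor of basal keratinocytes, did not pass (-0.16 ± 0.10). The summed linear signal of the list ran from 6582 to 6778 on the wild type arrays and from 5015 to 5242 on the Myc heterozygous arrays.

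The keratin genes of basal epidermis were dim in this tissue. Krt5 read 7.27 in wild type and 5.98 in Myc heterozygous muscle, with a mean under the filter, and was not tested. Of the 19 epidermal genes on the array below the filter 16 were lower (median -0.33). At 24 months 15 of the 16 tested genes were lower as well, with a median of -0.31. The difference between ages was called for 7, against 1.85% of all tested probe sets. The 16 genes were chosen by their level in 5-month muscle, so this count rests partly on the filter. Of 4 tested hair follicle genes 0 passed, and 2 of 9 sebaceous gland genes passed as lower (Scd1 and Fa2h). What part skin in the tissue had in this result was not tested.

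Dapl1, a death-associated protein-like gene, was among the largest measured differences. It read 8.58, 8.50 and 8.55 in wild type and 5.98, 6.22 and 6.02 in Myc heterozygous muscle, under the filter value in the latter (limma, adjusted p = 3.97e-15). Gm94 (-1.89 ± 0.13) and Ly6g6c, a Ly6 family gene (-1.60 ± 0.11), were also called and are on neither list. At 24 months the differences were -0.31 for Dapl1, -0.29 for Gm94 and -0.23 for Ly6g6c. For each of these genes the difference between ages was called. Wild type muscle read 10.3, 9.6 and 10.1 for them at 24 months, against 8.5, 7.9 and 8.0 at 5 months. Their 5-month Myc heterozygous means were under the filter value (6.07, 6.01 and 6.42). The sizes of these age differences therefore depend on the background signal.

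Of the 20 lower calls on neither list, 10 were at least 16-fold above muscle in wild type liver and 10 were not. Those that were comprised Pzp, Hpx, Mug1, Ces3a, Cyp2d26, Plg, Itih4, Cyp2f2, Gsta3 and Apoc1. Cyp2f2 (-0.78), Gsta3 (-0.81) and Apoc1 (-0.94) were lower in 24-month Myc heterozygous muscle as well (-1.29, -0.56 and -0.55). The rest of these liver-high genes were higher there. Those that were not were Dapl1, Gm94, Ly6g6c, Lce1h, Lce1j, Snord33, Elovl6, Angptl7, Cish and Csrp3. Lce1h (-1.08 ± 0.16) and Lce1j (-0.89 ± 0.13) are late cornified envelope genes that were not on the epidermal list. Cish, a feedback inhibitor of cytokine and growth hormone signalling induced by STAT5, read 8.95, 8.94 and 8.92 in wild type and 8.31, 8.33 and 8.22 in Myc heterozygous muscle, which was 1.57-fold lower. The groups were tight and far apart (limma, adjusted p = 1.39e-06), and at 24 months the difference was -0.88. Socs2, another STAT5 target, did not pass (-0.19 ± 0.07), nor did the growth factor gene Igf1 (-0.11 ± 0.07). Of 16 growth hormone and cytokine signalling genes 1 passed as lower and 0 as higher (median -0.04), and of 31 genes of insulin, IGF1 and mTOR signalling 0 passed (median -0.03). Snord33 was called lower (-0.72), and as it lies within a host gene its probes may read the host's RNA.

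Slow fibre genes were lower as a group by small amounts. Csrp3, a Z-disc protein of slow and cardiac muscle, read 11.27, 11.26 and 11.33 in wild type and 10.87, 10.67 and 10.44 in Myc heterozygous muscle. The pools did not overlap, and the difference of -0.63 ± 0.11 was called (limma, adjusted p = 0.000812). Without the Myc heterozygous array 3 it was -0.52 and no longer past 1.5-fold. Of 17 tested slow fibre genes 17 were lower, 3 passed and 1 was called, and the median was -0.21. The slow troponin I gene Tnni1 (-0.37 ± 0.10, limma adjusted p = 0.0488) and the stretch-responsive Ankrd2 (-0.31 ± 0.08, limma adjusted p = 0.0402) passed narrowly. Myh7, the slow myosin heavy chain, read 11.74, 11.70 and 11.73 against 11.49, 11.34 and 11.39. Its arrays did not overlap, but the difference of -0.32 ± 0.11 did not pass (limma, adjusted p = 0.252). The slow troponin T gene Tnnt1 (-0.40 ± 0.12) and the slow myosin binding protein gene Mybpc1 (-0.33 ± 0.10) did not pass either.

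The fast fibre genes lay near 0. Of 18 tested, 11 were higher and 7 lower, 0 passed, and the median was 0.01. Myh2, the myosin heavy chain of fast oxidative fibres, had the lowest difference of the list (-0.20 ± 0.11) and Mylpf, the fast regulatory light chain, the highest (0.09 ± 0.11). Of 28 genes of sarcomere and costamere structure 0 passed as lower and 1, Mybph, as higher (median -0.03). Their Myc heterozygous arrays lay wholly lower for 10 and wholly higher for 4, against 13.2% and 7.35% of all tested probe sets. The lowest, Myom3 (-0.33), Lmod2 (-0.33) and Xirp1 (-0.26), were higher at 24 months (0.56, 0.59 and 0.38). Of the 28 genes 18 were higher and 10 lower at 24 months, and the difference between ages was called for 5. Of 51 oxidative phosphorylation genes 0 passed (median -0.01), as did 0 of 25 glycolysis and glycogen genes and 0 of 19 genes of the tricarboxylic acid cycle.

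At 24 months the slow fibre list ran the other way, with 17 of 17 genes higher in Myc heterozygous muscle and a median of 0.38. The difference between ages was called for 9 of the 17, against 1.85% of all tested probe sets. For Csrp3 the genotype difference was -0.63 at 5 months and 0.93 at 24 months, for Ankrd2 -0.31 and 0.66, and for Tnni1 -0.37 and 0.52. Tendon and nerve genes showed the same signs. Of 13 tendon genes 12 were lower at 5 months (median -0.17) and 11 higher at 24 months (median 0.20). The tendon matrix genes Chad (-0.47 ± 0.11), Prg4 (-0.43 ± 0.08) and Comp (-0.40 ± 0.11) passed, and Scx, the tendon transcription factor, did not (0.24 ± 0.11). Of 10 nerve and Schwann cell genes 7 were lower at 5 months (median -0.12) and 9 higher at 24 months (median 0.17), and the myelin gene Pmp22 passed (-0.25 ± 0.06). What part tendon and nerve RNA had in the slow fibre result was not tested.

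**Figure D4:**
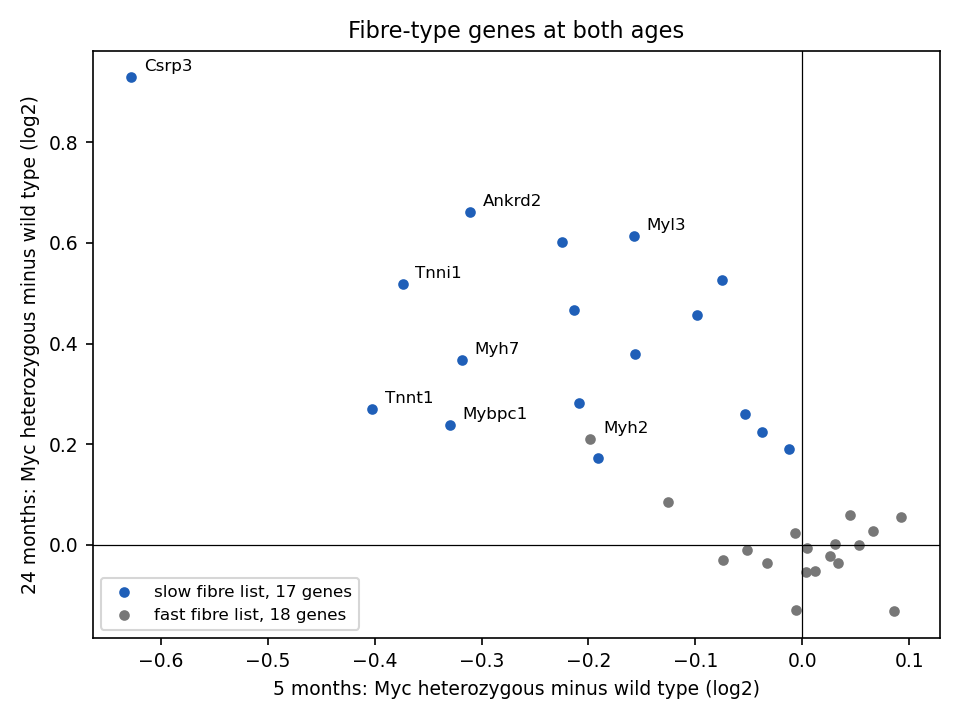
Genotype difference (Myc heterozygous minus wild type, log2) of 17 slow fibre and 18 fast fibre genes at 5 months (x axis) and at 24 months (y axis), 1 point per gene. Every slow fibre gene lies left of 0 and above 0, with Csrp3 farthest at -0.63 and 0.93, and the fast fibre genes lie around 0 at both ages.

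Fat-making genes were lower by modest amounts. Fasn, the fatty acid synthase, read 10.63, 10.57 and 10.53 in wild type and 9.87, 10.07 and 10.10 in Myc heterozygous muscle. The pools did not overlap, and the difference of -0.56 ± 0.05 passed just under 1.5-fold (limma, adjusted p = 2.39e-09). Elovl6, an elongase of fatty acids, was called (-0.71 ± 0.08). The stearoyl desaturase gene Scd1 (-0.54 ± 0.10), Pck1, whose enzyme supplies glycerol phosphate in fat (-0.55 ± 0.08), the acetyl-CoA carboxylase gene Acaca (-0.28 ± 0.06) and the acyltransferase gene Agpat2 (-0.25 ± 0.06) passed. Of 24 tested genes of fatty acid and triglyceride synthesis 21 were lower, 8 passed, 1 was called, and the median was -0.12. Me1, the malic enzyme gene, was among the 3 that were higher (0.10 ± 0.06).

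White adipocyte markers were mostly lower too, with a list median of -0.07 against -0.12 for the synthesis list. Of the 23 tested genes 19 were lower and 3 passed. The Myc heterozygous arrays lay wholly lower for 9 of them, against 13.2% of all tested probe sets, and wholly higher for 2. Their summed linear signal ran from 65514 to 67935 on the wild type arrays and from 62564 to 65093 on the Myc heterozygous arrays. These 2 ranges did not overlap. The adipokine gene Retn passed (-0.30 ± 0.08). Pck1, named above with the fat-making genes, is also on the adipocyte list and had its lowest difference (-0.55). What part adipocytes had in the lower Fasn and Scd1 was not tested. At 24 months the adipocyte list was lower with a median of -0.73 and the synthesis list with a median of -0.27, and Fasn differed by -1.10. Of 30 genes of fatty acid oxidation and PPAR targets 27 were lower and 0 passed (median -0.08). The pyruvate dehydrogenase kinase gene Pdk4 differed by -0.21 ± 0.07 and did not pass.

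**Figure D5:**
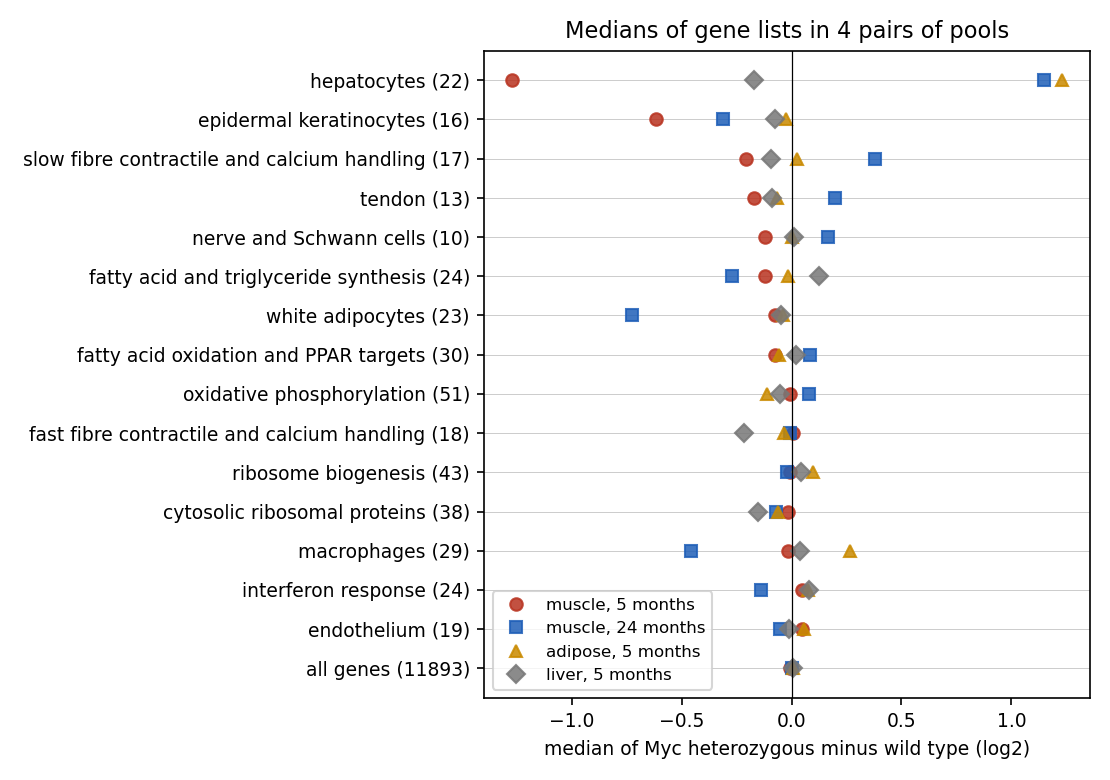
Median genotype difference (Myc heterozygous minus wild type, log2, x axis) of 15 gene lists and of all genes tested, in 4 pairs of pools. The number of tested genes stands in brackets, and the genes are those tested in 5-month muscle. The hepatocyte list lies at -1.27 in 5-month muscle and at 1.15 and 1.23 in 24-month muscle and 5-month adipose, and the slow fibre list changes sign between the ages.

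The 3 higher calls were Nr4a3, Bex1 and Mybph. Nr4a3, an orphan nuclear receptor induced early after exercise and other stimuli, read 8.37, 8.14 and 8.36 in wild type and 8.98, 9.06 and 9.19 in Myc heterozygous muscle, which was 1.72-fold higher (limma, adjusted p = 1.09e-05). Mybph, myosin binding protein H, read 8.93, 8.72 and 8.58 against 9.55, 9.56 and 9.23, which was 1.63-fold higher. Bex1 read 7.19, 7.36 and 7.56 against 7.98, 8.18 and 8.14, which was 1.65-fold higher (limma, adjusted p = 0.0233). Bex1 was not called when wild type array 1 or 2 or Myc heterozygous array 2 or 3 was left out (limma, adjusted p = 0.191, 0.0875, 0.125 and 0.105). None of the 3 was higher at 24 months, where the differences were -0.26, -0.13 and -0.32 for Nr4a3, Bex1 and Mybph.

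Genes next in size passed below 1.5-fold. Krt8, a simple epithelial keratin (0.58 ± 0.11), the chemokine gene Ccl8 (0.58 ± 0.11), the neutrophil calprotectin subunit S100a9 (0.55 ± 0.12), the mTOR inhibitor Ddit4 (0.54 ± 0.09), the mitochondrial carrier Slc25a25 (0.47 ± 0.09) and the platelet chemokine Ppbp (0.46 ± 0.11) were higher. 5730507C01Rik had non-overlapping arrays and did not pass (0.45 ± 0.16). Ccl8 differed by -1.49 at 24 months, and the difference between ages was called. Of 22 immediate early genes 15 were higher and 1, Nr4a3, passed (median 0.05), while its relative Nr4a1 did not (0.20 ± 0.08). Of 19 endothelial genes 15 were higher and 0 passed (median 0.05), and of 24 interferon response genes 17 were higher and 0 passed (median 0.05).

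Of the remaining lists, the circadian list had 1 of 17 genes that passed, the period gene Per3 (-0.36 ± 0.09). The clock output gene Dbp did not pass (-0.19 ± 0.09). The type I collagen genes Col1a1 (-0.34 ± 0.08) and Col1a2 (-0.29 ± 0.07) passed among 29 collagen and matrix genes, whose median was -0.04. Of 29 macrophage genes 1 passed as lower (H2-Eb1, an MHC class II chain, -0.27 ± 0.06) and the median was -0.02, against -0.46 at 24 months. Of 19 myogenesis and satellite cell genes 1 passed, the adhesion gene Vcam1 (0.28 ± 0.07), and of 20 neuromuscular junction and denervation genes 0 did.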

How the data were processed

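The authors deposited expression on a log2 scale for each probe set, used here unchanged. The submitters' processing notes name RMA and Affymetrix Expression Console but give neither versions nor settings. Symbols came from the platform annotation. Coordinates and promoter windows are from RefSeq (GRCm38.p6). A limma fit (version 3.58.1, R 4.3.3, with an intensity trend) on all 36 arrays had 1 coefficient for each of 12 pools (24 residual degrees of freedom). Genotype differences, and their differences between ages or tissues, were contrasts in that fit, adjusted by Benjamini-Hochberg over 13073 probe sets. The 3 arrays of a pool are technical, so p-values measure array-to-array error, and further arrays would not replace further pools. The fit was tested on simulated data.

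The gene lists, their members and the alternatives were chosen with earlier results of these data known. Lists are described by counts and medians, with no test. Named genes are Myc and Pvt1, the 15 largest calls in each direction (higher filled to 10 with the largest differences whose arrays did not overlap), and per list up to 6 by difference and 4 by level. Other called genes, Acta1, Ckm, Krt5, Apoa5, Cyp2e1 were named after their values were seen where they fall outside it. A gene was represented by its brightest tested probe set. The ± values are SE of the fit.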

Additional observations from a re-analysis of the deposited data

Results flagged for a closer look

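Genotype differences that were not the same in 5-month muscle as in another pair of pools, by a limma contrast of the differences, were found for 242 probe sets against 24-month muscle, 163 against 5-month adipose and 90 against 5-month liver. Among the named genes, the 5-month minus 24-month difference was -4.35 for Serpina1c and -3.99 for Alb. It was -3.28 for Fabp1, -3.23 for Apoa2, -3.16 for Hamp, -3.13 for Mup3, -3.10 for Ahsg and -2.86 for Kng1, all of them lower at 5 months and higher at 24 months. Several of these genes were dim in 24-month wild type muscle (4.92 for Serpina1c, 5.18 for Fabp1 and 5.10 for Hamp), so the sizes depend on the background signal and have no firm order. It was -2.16 for Dapl1, -1.84 for Lor, -1.60 for Gm94, -1.38 for Ly6g6c, -1.34 for Krt10, -1.24 for Krt77 and -0.95 for Krtdap, which were lower at both ages. Except for Krt10, the 5-month Myc heterozygous means of these genes were under the filter value, so their sizes depend on the background signal too. Genes higher at 5 months and lower at 24 months had positive values, of 2.06 for Ccl8, 1.04 for Nr4a3, 1.03 for Mybph, 0.86 for Bex1, 0.73 for Ddit4, 0.68 for S100a9, 0.64 for Ppbp and 0.62 for Slc25a25.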

How the results depend on the processing

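The counts of 50 called, 3 higher and 47 lower were also given by the 12 muscle arrays alone, the 6 arrays alone, the fit with no intensity trend and the replicate block. This shows little about stability, because these fits leave every difference as it is and all 50 probe sets past 1.5-fold passed in each of them. The number past the adjusted p alone, 151 in the fit reported, did change: 125 with the 12 muscle arrays, 336 with the 6 arrays, 142 with no trend and 167 with the replicate block. The block gave 242, 162 and 96 calls against 24-month muscle, adipose and liver. Deviations of same-numbered arrays correlated at 0.01 to 0.12, so the numbers were not taken as pairs. With no filter on dim probe sets 118 were called (10 higher, 108 lower), the 3 counts of differing genotype differences were 410, 412 and 173, and the medians were -0.94 (hepatocyte) and -0.44 (epidermal). With the 60th percentile filter 12 were called (10 lower), the counts were 137, 63 and 37, and the epidermal median was -0.063, so the epidermal result rests on dim probe sets. With no minimum fold the numbers were 151 (27 higher, 124 lower) and 605, 599 and 263, and at 2-fold 25 (0 higher, 25 lower) and 69, 58 and 34. Median centring, quantile normalization again and testing probe sets with several symbols or none too each gave 5 higher. Without 1 array the calls ran from 49 to 52, higher calls from 3 to 6, lower calls from 45 to 49, and the other 3 counts from 215 to 275, 146 to 172 and 82 to 92. The medians then ran from -1.30 to -1.22 (hepatocyte), -0.67 to -0.55 (epidermal) and -0.27 to -0.17 (slow fibre). Of 1478 alternative values of 108 named genes 1454 kept their direction and side of the threshold. Many of them could not change direction or fold. The 12 muscle arrays, the 6 arrays, the filter settings, the block and the fit with no trend leave each difference as it is. The count of 1454 therefore says little about stability. Only 1 value reversed: Mxd3 ran from -0.20 to 0.014 without 1 array, with its positive value without Myc heterozygous array 2. The cause was not tested.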
